A study of Mus musculus with 62 samples.

Results

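The genes described here are 10 muscle genes that encode proteins of the Z-disc and I-band or that are known to respond to mechanical stress: Mybph, Csrp3, Ankrd1, Ankrd2, Ankrd23, Xirp1, Xirp2, Nexn, Fhl2 and Nmrk2. They were chosen by symbol, 10 of the 35225 distinct symbols in the 4 expression tables, and each was found in every table. The choice drew on measured values: Mybph, Csrp3 and Nmrk2 were selected on their response to hypoxia, and Xirp2 and Nexn on a difference between sets of libraries in the table that holds the hypoxia samples. Values of those contrasts are therefore given as a description, without a test. All values are fragments per kilobase of transcript, scaled to the size of the library (FPKM), so that levels of different genes within 1 table are compared per transcript length.

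The 62 libraries came from 4 experiments on carbohydrate response element-binding protein (ChREBP, encoded by Mlxipl), a glucose-sensing transcription factor. In the chow experiment, gastrocnemius (GC, a mixed and mainly fast muscle) and soleus (SOL, a slow postural muscle) were dissected from ChMKO animals and from F/F littermates kept on normal chow (n = 5 per group). F/F mice carry ChREBP alleles with loxP sites around exon 8 and no Cre, and ChMKO mice carry the same alleles and Cre driven by the muscle creatine kinase promoter, which is also active in the heart. In the next experiment GC of both genotypes was dissected after normoxia with normal chow (Norm), after 2 weeks in a chamber that simulated an altitude of 5500 m (Hypo), or after 3 months of a diet with 68% of its calories as fructose (HFrD), with 4 mice per group. In another, GC of wild-type C57BL6/J mice, which carry no ChREBP-flox allele or Cre, was taken 14 days after an intramuscular injection of an adeno-associated virus that carries green fluorescent protein (AAV-GFP) or full-length mouse ChREBP (AAV-ChREBP) under the cytomegalovirus promoter, which is not restricted to muscle fibres (n = 5 per group). Mice were males, 8 to 10 weeks old unless the study states otherwise. Ages at dissection are not given by group, so whether HFrD mice, after 3 months of diet, matched the Norm mice in age is not known. The last held C2C12 cells, a mouse myoblast line, transduced with a control (CON) or a ChREBP retrovirus (Ch-OE), selected as stable lines and differentiated for 7 days (n = 4 per line). Each C2C12 group was 1 stable line, so its 4 libraries measure the spread within that line. Whole muscle is a mixture of fibre types and other cells, and fewer cells of a type and less RNA per cell cannot be told apart in these libraries.

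The Z-disc is the protein lattice that anchors the thin filaments of adjacent sarcomeres, and it passes contractile force on to the cytoskeleton and the membrane. Titin spans the sarcomere from the Z-disc to the M-band, and several small proteins bind its I-band part and are known to shuttle to the nucleus when muscle is stretched. The genes of these proteins are classical markers of overloaded or damaged muscle and heart. Mybph encodes myosin-binding protein H, a thick-filament protein. Csrp3 encodes muscle LIM protein, a Z-disc adaptor whose loss causes dilated cardiomyopathy in mice. Ankrd1 (CARP), Ankrd2 (ARPP) and Ankrd23 (DARP) are the family of muscle ankyrin repeat proteins that bind titin in the I-band. Xirp1 and Xirp2 encode the Xin actin-binding repeat proteins, and Nexn encodes nexilin, an actin-binding protein of the Z-disc and the junctional membrane. Fhl2 encodes a protein of LIM domains that binds titin and acts as a transcriptional co-regulator. Nmrk2 encodes nicotinamide riboside kinase 2, a muscle enzyme of nicotinamide adenine dinucleotide (NAD) synthesis that was also described as an integrin-binding protein.

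On GRCm39, as the table of the Norm, Hypo and HFrD samples gives them, Mybph lies at chr1:134121186-134128970 on the forward strand and Csrp3 at chr7:48480146-48497781 on the reverse strand. Ankrd1 is at chr19:36089361-36097499 (reverse) and Ankrd2 on the same chromosome at chr19:42024439-42033549 (forward), and the third member of their family, Ankrd23, is at chr1:36569269-36575964 (reverse). Xirp1 lies at chr9:119842821-119852664 (reverse) and its longer relative Xirp2 at chr2:67004178-67356959 (forward). Nexn is at chr3:151942619-151971987 (reverse), Fhl2 at chr1:43162234-43236144 (reverse) and Nmrk2 at chr10:81034004-81037885 (reverse).

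Promoter sequence is shown for 6 of the genes called between the muscles of F/F mice, 4 of them higher in SOL (Csrp3, Ankrd1, Ankrd2 and Fhl2) and 2 lower (Mybph and Nmrk2). RefSeq (GRCm38.p6) gave 11 start-site windows for 8 of the 10 genes, and none was found for Nexn or Xirp1 in the table used. Each window below is the 250 bases upstream of an annotated start, printed 5′ to 3′ on the gene's strand, with matches to 4 sequence elements in capitals. The elements, searched on both strands, were the MCAT element CATTCC bound by TEAD factors, the E-box CACGTG that is the core of the ChREBP response element, the CArG box bound by serum response factor, and the MEF2 box. No 2 of the printed matches overlap each other. Among 32851 mouse windows of the same length, 12.6% held CATTCC, 6.02% held CACGTG, 1.47% a CArG box and 2.92% a MEF2 box.
Mybph (chr1:134193198-134193447, forward): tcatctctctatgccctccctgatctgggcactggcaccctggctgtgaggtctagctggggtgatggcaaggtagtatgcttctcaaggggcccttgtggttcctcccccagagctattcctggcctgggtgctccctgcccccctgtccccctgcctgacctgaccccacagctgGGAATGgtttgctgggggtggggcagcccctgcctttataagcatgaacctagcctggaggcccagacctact
Ankrd1 (chr19:36119845-36120094, reverse): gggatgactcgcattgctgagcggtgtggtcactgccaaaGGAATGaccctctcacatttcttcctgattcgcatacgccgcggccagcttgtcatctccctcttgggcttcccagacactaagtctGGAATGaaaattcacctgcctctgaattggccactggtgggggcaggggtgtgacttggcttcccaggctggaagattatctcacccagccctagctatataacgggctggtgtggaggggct
Fhl2 start 1 (chr1:43163962-43164211, reverse): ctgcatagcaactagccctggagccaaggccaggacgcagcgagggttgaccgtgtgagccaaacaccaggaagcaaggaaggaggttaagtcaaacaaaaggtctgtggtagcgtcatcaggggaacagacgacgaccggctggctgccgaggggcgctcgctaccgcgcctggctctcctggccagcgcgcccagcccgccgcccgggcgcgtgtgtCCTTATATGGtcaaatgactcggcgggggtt
Fhl2 start 2 (chr1:43196762-43197011, reverse): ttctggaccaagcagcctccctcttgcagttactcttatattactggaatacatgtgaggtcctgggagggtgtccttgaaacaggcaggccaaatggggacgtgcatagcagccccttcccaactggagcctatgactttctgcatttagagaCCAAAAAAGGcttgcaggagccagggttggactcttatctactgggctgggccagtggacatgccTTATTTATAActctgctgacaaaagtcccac
Csrp3 start 1 (chr7:48843672-48843921, reverse): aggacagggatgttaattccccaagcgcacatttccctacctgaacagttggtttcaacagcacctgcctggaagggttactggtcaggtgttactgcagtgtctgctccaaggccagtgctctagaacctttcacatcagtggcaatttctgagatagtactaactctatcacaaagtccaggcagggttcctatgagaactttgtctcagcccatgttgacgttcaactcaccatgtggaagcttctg
Ankrd2 (chr19:42035777-42036026, forward): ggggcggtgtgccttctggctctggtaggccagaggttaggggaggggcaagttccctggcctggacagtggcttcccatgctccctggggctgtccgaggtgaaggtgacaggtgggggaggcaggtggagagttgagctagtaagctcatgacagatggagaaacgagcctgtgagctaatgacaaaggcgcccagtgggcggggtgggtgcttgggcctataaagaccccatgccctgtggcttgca
Nmrk2 (chr10:81202038-81202287, reverse): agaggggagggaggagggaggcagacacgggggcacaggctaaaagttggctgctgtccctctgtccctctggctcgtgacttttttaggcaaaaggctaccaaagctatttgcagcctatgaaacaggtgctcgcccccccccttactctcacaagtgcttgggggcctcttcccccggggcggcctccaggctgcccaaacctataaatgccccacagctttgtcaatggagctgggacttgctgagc

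The Mybph window held CATTCC (as GGAATG on the strand shown) 73 bases before the start, and the Ankrd1 window held it at 210 and 123 bases. Of the windows not printed, the first Ankrd23 start held CATTCC 120 bases before the start and the Xirp2 window a MEF2 box 74 bases before it. Both Fhl2 windows held a CArG box, at 31 and 96 bases, and the second also a MEF2 box at 31 bases. The windows of Csrp3, Ankrd2 and Nmrk2 and the second Ankrd23 start held none of the 4 elements. CACGTG occurred in none of the 11 windows. A match is a description of the letters in these windows, and its absence says nothing about the factors.

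Read numbers recovered from the FPKM values were 14473169 to 23460511 per library in the Norm, Hypo and HFrD samples. Depth was higher in HFrD than in Norm: 19212836 to 23460511 against 14817171 to 18981598 reads in F/F mice. In ChMKO mice it was 17228113 to 21667970 against 14473169 to 18192668 reads. Estimates from the low values gave a median of 17250000 on chow and of 16550000 in the AAV samples. The depth of the C2C12 libraries is unknown. The targeted gene followed the labels. On chow Mlxipl averaged 24.9 ± 4.1 FPKM in F/F GC against 15.7 ± 2.53 in ChMKO GC, and 8.63 ± 1.05 against 3.3 ± 0.152 FPKM in Norm. It rose 7.37-fold with AAV-ChREBP, and in C2C12 it was 0 to 0.02 FPKM in CON and 12.8 to 13.8 in Ch-OE. The 4 cardiac markers summed to under 5 FPKM in every GC library, and slow-twitch markers summed to 70.1 to 767 FPKM in GC and to 13381 to 21135 FPKM in SOL of F/F mice.

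On chow, the mean levels of the 10 genes in GC of F/F mice ran from 0.765 to 772 FPKM. Ankrd23 was the most abundant in GC, at 772 ± 102 FPKM in F/F mice (SD, n = 5), followed by Xirp2 at 188 ± 19.1 and Nexn at 81 ± 13.5. Csrp3, Ankrd2, Nmrk2, Xirp1 and Mybph had means from 23.1 to 65.1 FPKM, and their ranges overlapped. Ankrd1 was low, at 2.68 ± 2.1 FPKM, and Fhl2 lowest, at 0.765 ± 0.956 FPKM. Among the mice of 1 group, Ankrd23, Xirp2 and Nexn varied little, whereas Csrp3 in GC of F/F mice ran from 12.2 to 140.1 FPKM and Ankrd2 from 18.3 to 112 FPKM. In C2C12 the order was different: Ankrd1 was the most abundant of the genes in CON, at 300.2 ± 18.2 FPKM (SD, n = 4), and Mybph was second, at 89.7 ± 2.25. Fhl2 was at 25.4 ± 1.72 FPKM and Nexn at 19.8 ± 0.485 FPKM in those cells. Ankrd23 was only at 7.1 ± 0.905 FPKM there, and Xirp2, at 0.268 ± 0.025 FPKM, and Nmrk2, at 0.77 ± 0.154 FPKM, were below 1 FPKM in most libraries. The 4 tables were normalised separately, so levels set across them are descriptions.

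The comparison of SOL with GC asked how the genes differ between a slow and a mainly fast muscle, and it used none of the values by which they were chosen. In F/F mice, 6 of the 10 genes were higher in SOL (Csrp3, Ankrd1, Ankrd2, Ankrd23, Xirp1 and Fhl2) and 2 were lower (Mybph and Nmrk2), whereas Xirp2 and Nexn were not called. Genes were called at a Benjamini-Hochberg adjusted p under 0.05 in limma over all genes tested, here 13307, of which 50.2% were called. A change of at least 2-fold with an unadjusted p under 0.05, the criterion of the study, was met by 6 of the 10 genes and by 7.98% of all genes. The study applied this criterion to DESeq2 results. Here and below it is applied to limma on log2(FPKM + 1), which understates changes of low genes, so these shares are not those of the study. The median log2 difference (log2(FPKM + 1), SOL minus GC) was 1.03 over the 10 genes and 0.18 over all genes.

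The largest differences were in Fhl2, Ankrd2 and Csrp3. Ankrd2, known to be enriched in slow fibres and to rise on stretch, was at 25.9, 112, 18.3, 86 and 33.2 FPKM in the GC libraries of F/F mice 57, 58, 69, 70 and 71. In SOL of the mice with these numbers it was at 468, 636, 484, 1102 and 917 FPKM. Every SOL library lay above every GC library, the means differed 13.1-fold, and the log2 difference was 3.94 ± 0.47 (SE, n = 5 per group, limma adjusted p = 6.82e-05). Csrp3 was at 37.6, 107, 28.2, 140.1 and 12.2 FPKM in GC and at 304, 513, 395, 1267 and 440.2 FPKM in SOL. The groups did not overlap here either, and the log2 difference was 3.44 ± 0.61 (limma adjusted p = 0.000859), a ratio of means of 8.97. Fhl2 was barely detected in GC, at 0.273, 2.47, 0.346, 0.35 and 0.382 FPKM, and was at 13.9, 20.7, 13, 12.3 and 10.9 FPKM in SOL. It had the smallest p of the 10 genes in this comparison, with a log2 difference of 3.20 ± 0.27 (limma adjusted p = 8.47e-06).

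Xirp1, which marks fibres under repair as well as the myotendinous junction, was at 41, 46.9, 20.8, 33.5 and 22.6 FPKM in GC and at 93.6, 126, 132, 246 and 52.5 FPKM in SOL of F/F mice. Its groups did not overlap, with a log2 difference of 1.84 ± 0.36 (limma adjusted p = 0.00165). Ankrd1 was at 2.79, 6.19, 1.27, 2.19 and 0.939 FPKM in GC and at 4.96, 11.9, 5.76, 43.4 and 6.34 FPKM in SOL. Its groups overlapped, and the log2 difference of 1.76 ± 0.53 (limma adjusted p = 0.0179) fell to 1.26 without the SOL library of mouse 70. Ankrd23 differed by only 0.30 ± 0.11 (limma adjusted p = 0.0437), a call that was lost with the mouse as a block, with no filter on low genes, after rescaling of the libraries (0.05), and with any 1 of 9 of the 10 libraries left out (all but GC of mouse 58).

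Mybph and Nmrk2 went the other way. Mybph was at 39.4, 13.4, 42.1, 16.8 and 4.07 FPKM in GC and at 0.642, 0.703, 0.604, 10.4 and 0.907 FPKM in SOL of F/F mice, so that 4 of the 5 SOL libraries were below 1 FPKM and only mouse 70 overlapped GC. The log2 difference was -2.90 ± 0.67 (limma adjusted p = 0.00422), and -3.45 without that library. Nmrk2 was at 39.4, 32.5, 64.2, 41.1 and 87.5 FPKM in GC and at 18.9, 23.2, 31.1, 36.4 and 25.3 FPKM in SOL, a log2 difference of -0.89 ± 0.26 (limma adjusted p = 0.0151) with groups that overlapped in 1 SOL library. Xirp2 (157 to 208 FPKM in GC, 148 to 253 in SOL) and Nexn (66 to 98.2 and 67.7 to 94.7 FPKM) had nearly the same level in both muscles. Their log2 differences had 95% intervals of -0.44 to 0.20 and -0.26 to 0.28. After rescaling, Xirp2 was called lower in SOL at -0.37.

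In ChMKO mice, 9 of the 10 genes were called between SOL and GC, 6 higher and 3 lower, beside 57.7% of the 13152 genes tested. The criterion of the study was met by 6 of the 10 genes and 7.82% of all genes, and the medians were 0.36 for the 10 genes and 0.15 for all. Ankrd2 was at 27.4, 22.8, 56.6, 104 and 37.2 FPKM in GC of ChMKO mice 59, 60, 61, 72 and 74 and at 557, 688, 648, 656 and 641 FPKM in SOL, with a log2 difference of 3.87 ± 0.33 (limma adjusted p = 1.99e-06). Csrp3 was at 39.3, 20.6, 78.7, 53.2 and 57 FPKM in GC and 303, 434, 416, 527 and 591 FPKM in SOL, a log2 difference of 3.25 ± 0.30 (limma adjusted p = 4.16e-06). For these genes, and for Fhl2 (0.457 to 1.85 FPKM in GC, 14 to 18.3 in SOL, log2 difference 3.24 ± 0.18) and Xirp1 (32.2 to 59.9 and 79.3 to 194 FPKM, 1.35 ± 0.25), every SOL library was above every GC library.

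Mybph was at 63.7, 70.5, 14, 7.95 and 49.4 FPKM in GC and at 0.395, 1.82, 1.11, 0.812 and 0.944 FPKM in SOL of ChMKO mice. All SOL libraries lay below all GC libraries, with a log2 difference of -4.01 ± 0.53 (limma adjusted p = 6.67e-05). Nmrk2 was at 28.4, 84.8, 83.4, 66.6 and 47.4 FPKM in GC and at 12.6, 16.3, 19, 18.9 and 18.8 FPKM in SOL, also without overlap, and the log2 difference was -1.71 ± 0.26 (limma adjusted p = 0.000203). The remaining calls were small: Nexn was higher by 0.32 ± 0.08, Ankrd23 higher by 0.25 ± 0.09 and Xirp2 differed by -0.22 ± 0.08 on the log2 scale. Nexn was not called after rescaling (0.12). Ankrd23 lost its call without GC of mouse 59 or 60 or SOL of mouse 59 or 72 (0.19 to 0.30 over the 10 fits that leave out 1 library), and Xirp2 without any of these libraries or SOL of mouse 61 or 74 (-0.26 to -0.16). Ankrd23 was also lost with the mouse number as a block, after rescaling and with no filter on low genes, and Xirp2 with no filter. Ankrd1, at 2.44 to 11.8 FPKM in GC and 5.41 to 9.09 in SOL, was not called (log2 difference 0.40, 95% interval -0.33 to 1.14, limma adjusted p = 0.32).

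**Figure D1:**
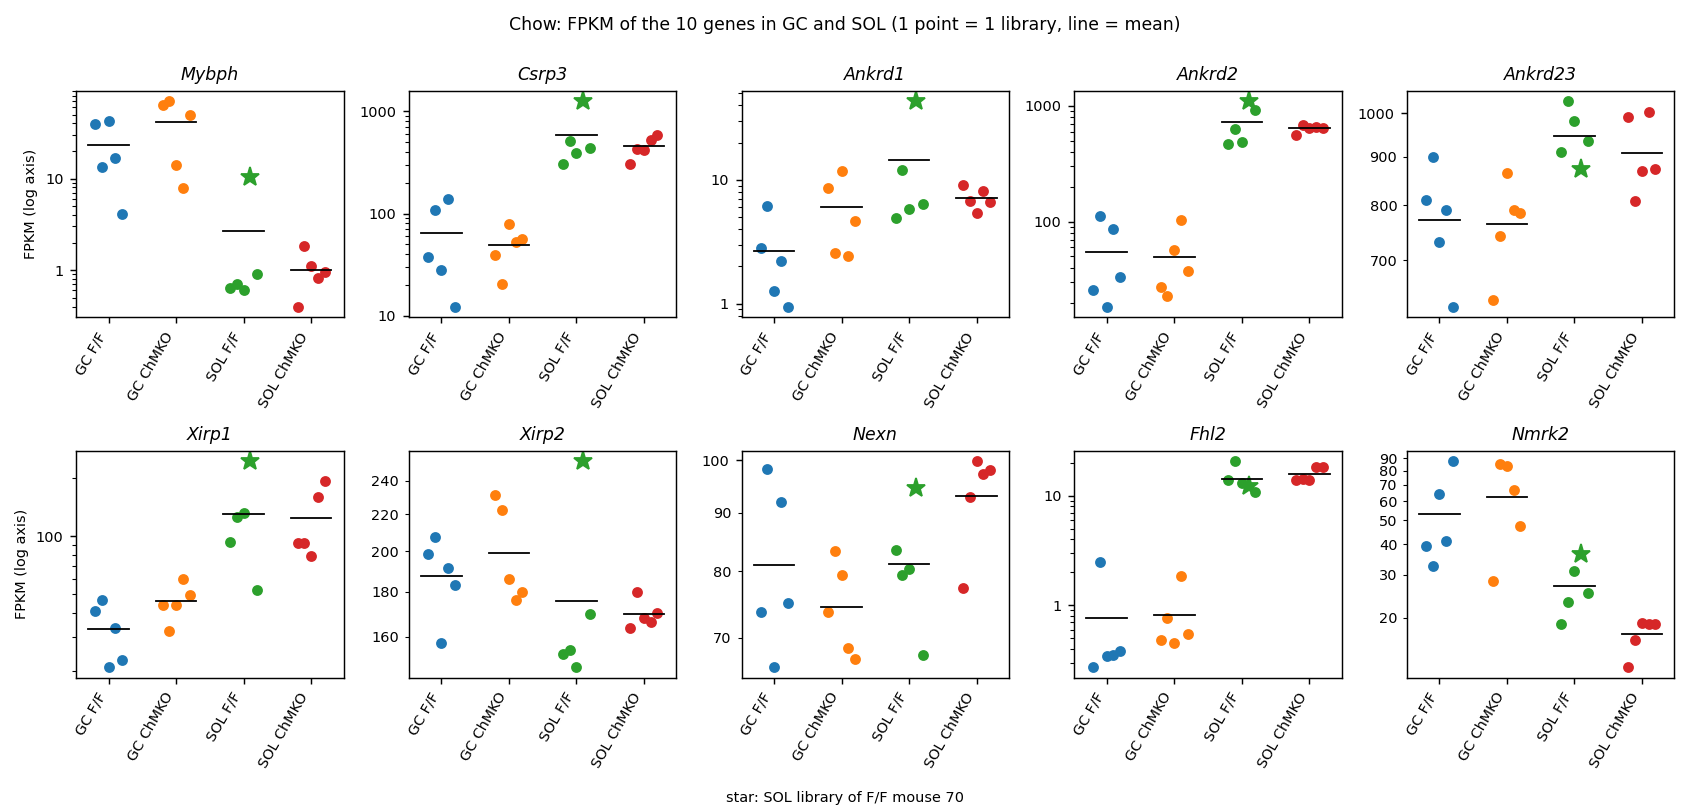
FPKM (log axis, scaled separately for each gene) of the 10 genes in both muscles and genotypes on chow; each point is 1 library, the line is the group mean and the star marks the SOL library of F/F mouse 70. Csrp3, Ankrd2, Xirp1 and Fhl2 are higher in every SOL library than in every GC library of the same genotype, and Mybph is under 2 FPKM in 9 of the 10 SOL libraries.

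Markers of fibre type moved with this comparison. All 8 slow-twitch markers were called higher in SOL in both genotypes, and in ChMKO mice their summed level was 92.6 to 404 FPKM in GC and 14047 to 15733 FPKM in SOL. Of 7 fast-twitch markers, 5 were called lower in each genotype, and 1 in F/F and 2 in ChMKO mice were called higher, among them Myh2 (2.18 and 2.37 on the log2 scale). Markers of some other cell types were higher in SOL as well: both endothelial, both red blood cell, all 3 smooth muscle and 2 of 3 adipocyte markers were called in both genotypes. Markers of satellite cells and regenerating fibres went both ways, 2 higher and 2 lower of 7 in F/F and 3 and 2 of 6 in ChMKO mice. No fibroblast, tendon or macrophage marker was called in either genotype. The endothelial markers summed to 23.2 to 46.6 FPKM in GC and 69.8 to 120.5 FPKM in SOL of F/F mice, and those of smooth muscle to 33.4 to 59.4 and 76.5 to 167 FPKM. The part of fibre type and of these cells in the differences of the 10 genes was not tested. The SOL library of F/F mouse 70 had the highest value of its group for 8 of the 10 genes, all but Ankrd23 and Fhl2. Its macrophage markers summed to 19.6 FPKM against 2.51 to 5.28 FPKM in the other SOL libraries of F/F mice, and their part in those levels was not tested. Without this library, Csrp3 differed by 3.12 and Xirp1 by 1.57 on the log2 scale, close to the values with it.

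Related genes from fixed lists moved in both directions between the muscles. Of 32 other Z-disc and I-band genes, 31 were tested in F/F mice, 16 were higher in SOL and 7 lower, with a median log2 difference of 0.50 against 0.18 over all genes. Among them Actn3, the alpha-actinin of fast fibres, differed by -4.43, Myoz2 (calsarcin-1) by 4.28 and Pdlim1 by 3.27. Of 14 tested genes of the load, serum response factor and YAP response, 8 were higher and 2 lower, with Hspb7, a small heat shock protein, at 3.30, Atf3, a stress transcription factor, at 2.80 and Actc1, the cardiac alpha-actin, at -1.66. Of 7 tested paralogs of the members, 4 were higher and 1 lower: Fhl1 differed by 2.29, Mybpc1, the slow myosin-binding protein C, by 1.48, and Mybpc2, its fast counterpart, by -3.92. Of 5 tested genes of NAD synthesis besides Nmrk2, only Naprt was called, at 0.60. In ChMKO mice the calls were 17 higher and 9 lower of 31 Z-disc genes, 7 and 3 of 14 load genes, 4 and 2 of 7 paralogs, and 2 and 0 of 5 NAD genes.

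The comparison of ChMKO with F/F mice on chow asked whether loss of ChREBP changed these genes at rest. In GC none of the 10 genes was called (limma), beside 0.0391% of the 12790 genes tested, and 1 member, Xirp1, had an unadjusted p under 0.05. None met the criterion of the study, which 0.172% of genes met. Ankrd1 had the largest difference, at 8.56, 2.59, 11.8, 2.44 and 4.64 FPKM in ChMKO mice against 2.79, 6.19, 1.27, 2.19 and 0.939 FPKM in F/F mice (log2 difference 0.90, 95% interval -0.04 to 1.83). Xirp1 was at 43.7, 32.2, 43.9, 59.9 and 49.4 FPKM in ChMKO against 41, 46.9, 20.8, 33.5 and 22.6 FPKM in F/F mice (log2 difference 0.50, 95% interval 0.00 to 1.00). The ranges of all 10 genes overlapped between the genotypes. The intervals were narrow for Ankrd23 (-0.26 to 0.24), Xirp2 (-0.14 to 0.31) and Nexn (-0.36 to 0.14) and wide for Mybph (-0.78 to 2.30).

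In SOL none of the 10 genes was called between genotypes either (limma), beside 0.0298% of 13425 genes, and none met the criterion of the study, which 0.186% of genes met. The member with the smallest p was Nmrk2, at 12.6, 16.3, 19, 18.9 and 18.8 FPKM in ChMKO and 18.9, 23.2, 31.1, 36.4 and 25.3 FPKM in F/F mice. Only 1 ChMKO library exceeded the lowest F/F library, and the log2 difference of -0.61 ± 0.17 had an unadjusted p of 0.00412 and a limma adjusted p of 0.375. The other 9 genes had limma adjusted p of 0.532 to 0.993. A test of the difference between the muscles, the genotype-by-muscle interaction with the mouse as a random effect, called none of the 10 genes, beside 0.00755% of 13247 genes. For Nmrk2 that interaction was -0.82 (unadjusted p = 0.0438, limma adjusted p = 0.812) and for Ankrd1, called between muscles only in F/F mice, -1.35 (limma adjusted p = 0.812).

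In hypoxia, the means of Csrp3, Ankrd2 and Mybph were above those of Norm in both genotypes. Because genes were chosen for this response, the values are described without a test, and the 2 genotypes have separate Norm controls. Csrp3 was at 21, 14.6, 14.4 and 13.1 FPKM in Norm F/F mice c368, c369, c397 and c401 and at 174, 27, 34.7 and 42.4 FPKM in Hypo F/F mice c341, c348, c360 and c361. In ChMKO mice it was at 24.4, 21.3, 41.7 and 16.7 FPKM in Norm and at 110.4, 47.6, 204 and 103 FPKM in Hypo (mice c332, c333, c340 and c345). It was the only one of the 10 genes whose Hypo libraries were all above the Norm libraries in both genotypes, and its means differed 4.41-fold in F/F and 4.47-fold in ChMKO mice. The F/F ratio rested on mouse c341 and was 2.2 without it. Of the 10 genes, every Hypo library lay above every Norm library for Csrp3 in F/F mice and for Csrp3 and Ankrd2 in ChMKO mice. Over all genes this held for 0.382% of 10741 in F/F and 3.24% of 10677 in ChMKO mice. Csrp3 was chosen on this response, so the counts are a description and cannot be weighed against these shares.

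Ankrd2 was at 40.6, 118, 56.8 and 42.5 FPKM in Norm and 516, 67.7, 113 and 110.4 FPKM in Hypo F/F mice. Mouse c341 alone stood far above the rest of its group, and the ratio of means went from 3.13 to 1.5 without it; the ranges overlapped because Norm mouse c369 was above 3 of the 4 Hypo mice. In ChMKO mice Ankrd2 was at 61.3, 94, 69.7 and 89 FPKM in Norm and 292.02, 171, 586 and 257 FPKM in Hypo, without overlap, a ratio of means of 4.16. Mybph was at 21.1, 39.9, 29.2 and 20.9 FPKM in Norm and 110.1, 69.7, 47.4 and 26.2 FPKM in Hypo F/F mice, a ratio of 2.28. In ChMKO mice it was at 98.2, 32.1, 42.6 and 24.2 FPKM in Norm and 218, 102, 115 and 93.1 FPKM in Hypo, where only Norm mouse 370 reached the Hypo range (ratio 2.69). Ankrd1 was less even: it was at 0.676, 2.03, 0.939 and 1.17 FPKM in Norm and 3.32, 1.67, 2.3 and 1.74 FPKM in Hypo F/F mice, and at 1.64, 1.47, 1.78 and 1.2 FPKM in Norm and 7.48, 2.81, 1.73 and 15.7 FPKM in Hypo ChMKO mice, so that the mean of Hypo ChMKO rested on mice c332 and c345.

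Nmrk2, although chosen for a response to hypoxia, overlapped between Norm and Hypo in both genotypes. It was at 73.3, 36.6, 21 and 41.7 FPKM in Norm and 44.4, 24.6, 35.1 and 20.6 FPKM in Hypo F/F mice, a ratio of means of 0.722. In ChMKO mice it was at 49.3, 43.2, 48.3 and 89 FPKM in Norm and 76.4, 65.2, 35.7 and 79 FPKM in Hypo, a ratio of 1.12. Its mean was also higher in ChMKO than in F/F mice in Norm, 57.4 against 43.1 FPKM, and whether the genotypes differ in their response was not tested. Xirp1 had ratios of 1.33 in F/F and 1.83 in ChMKO mice, and Fhl2, at 0.555 to 2.81 FPKM in Norm and 0.475 to 4.37 FPKM in Hypo F/F mice, had ratios of 1.51 and 1.36, all with overlap. In F/F mice both genes turned direction with 1 library: without Hypo mouse c341 the ratios were 0.899 for Xirp1 and 0.909 for Fhl2, and without Norm mouse c369 they were 2.30 and 2.43. Over the 10 genes the log2 difference was above 0 for 7 in F/F mice (median 0.42, against -0.06 over all genes) and for 10 in ChMKO mice (median 0.56, against -0.03). Genes chosen for this response are among the 10, so these values are a description only.

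**Figure D2:**
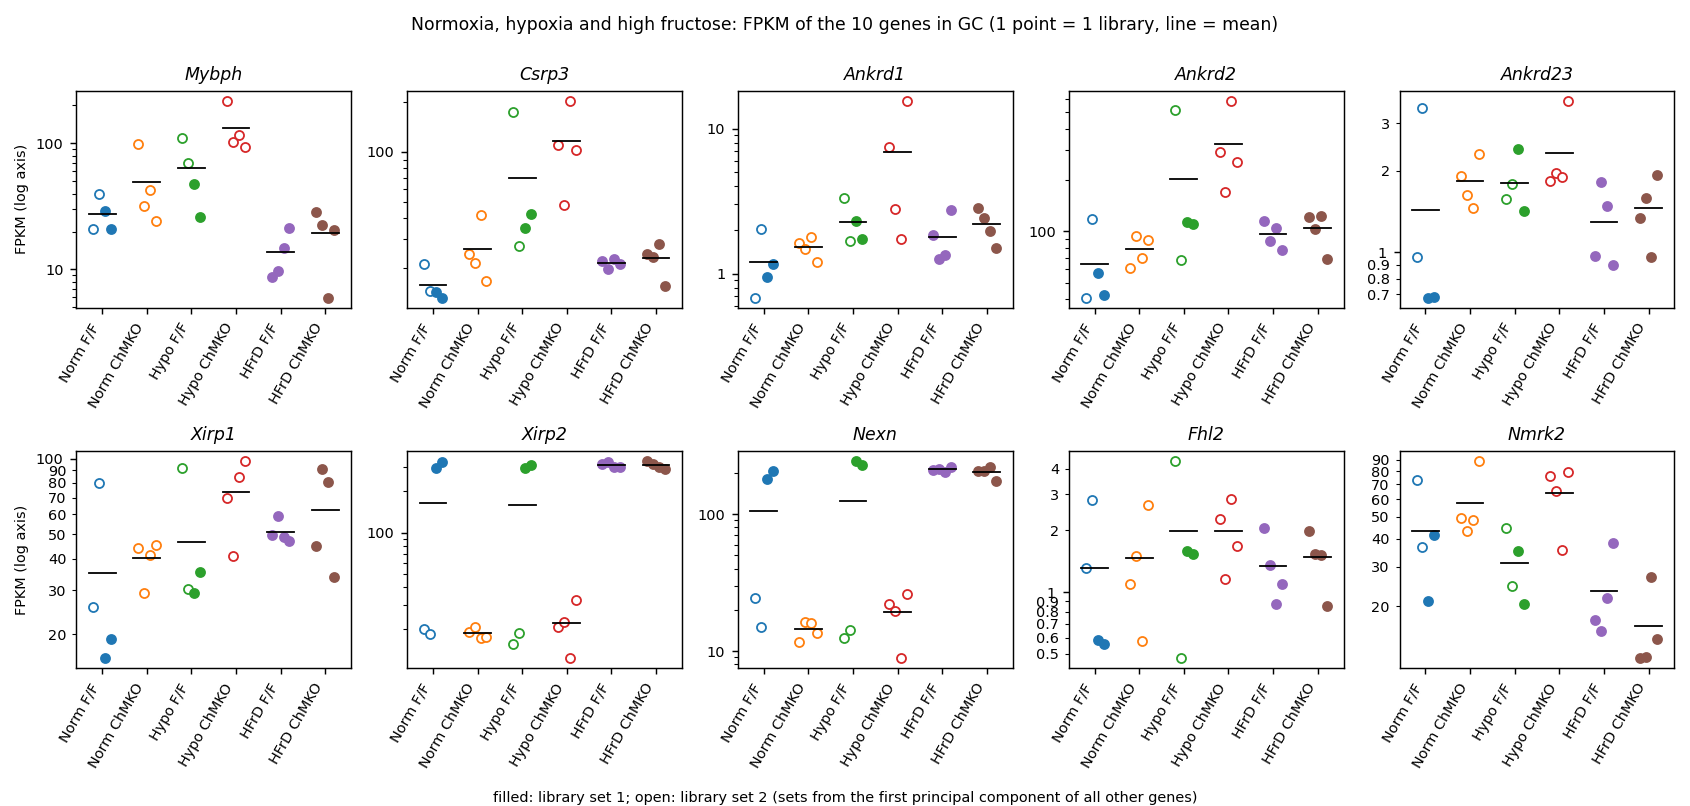
FPKM (log axis, scaled separately for each gene) of the 10 genes in GC of both genotypes in normoxia (Norm), hypoxia (Hypo) or on a high-fructose diet (HFrD); each point is 1 library, the line is the group mean, and filled and open points are library sets 1 and 2. Csrp3 is higher in every Hypo library than in every Norm library of its genotype, and Xirp2 and Nexn follow the library set.

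Slow-twitch and other markers differed with hypoxia as well. Their summed level ran from 116 to 516 FPKM in Norm and from 226 to 1238 FPKM in Hypo F/F mice, and from 74.5 to 374.1 FPKM and from 206 to 1349 FPKM in ChMKO mice. The highest Hypo F/F value, 1238 FPKM, was in mouse c341, which also had the highest Mybph, Csrp3, Ankrd1, Ankrd2, Xirp1, Fhl2 and Nmrk2 of its group. The highest Hypo ChMKO value, 1349 FPKM, was in mouse c345, which had the highest Ankrd1, Ankrd23, Xirp1, Xirp2, Nexn and Nmrk2. Both red blood cell markers were higher in the mean of Hypo in both genotypes (summed level 94.3 to 349 FPKM in Norm and 143 to 577 FPKM in Hypo F/F mice, 193 to 358 and 283 to 749 FPKM in ChMKO mice). All 5 fibroblast and tendon markers were lower in both (medians of -0.24 and -0.53 on the log2 scale). The part of fibre type and of these cells in these levels was not tested. Norm F/F mouse c369, with the highest Mybph, Ankrd1, Ankrd2, Ankrd23, Xirp1 and Fhl2 of its group, had immediate early genes summing to 320 FPKM against 13.2 to 35.1 FPKM in the other Norm F/F mice. The part of this in those levels was not tested. Of the list of 31 tested Z-disc genes, 24 in F/F and 26 in ChMKO mice had a log2 difference above 0 in hypoxia, as had 11 and 14 of the 14 load genes. Over all genes it was above 0 for 3273 of 10741 in F/F and 4455 of 10677 in ChMKO mice.

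Xirp2 and Nexn divided the libraries of this experiment into sets that no label names. The first principal component of all genes without the members held 61.5% of the variance and separated 12 libraries (set 1: Norm F/F mice c397 and c401, Hypo F/F mice c360 and c361 and all 8 HFrD mice) from the 12 others (set 2: Norm F/F mice c368 and c369, Hypo F/F mice c341 and c348 and all 8 Norm and Hypo ChMKO mice). Xirp2 was at 20.0, 18.3, 293.4 and 324 FPKM in Norm F/F mice c368, c369, c397 and c401 and at 15.7, 18.7, 290.6 and 306 FPKM in Hypo F/F mice c341, c348, c360 and c361. Over all libraries it was at 290.0 to 331 FPKM in set 1 and at 12.3 to 32.6 FPKM in set 2. Nexn was at 24.2, 15, 179.5 and 205 FPKM in the Norm F/F mice and 12.4, 14.2, 246 and 229 FPKM in the Hypo F/F mice. It was at 175 to 246 FPKM in set 1 and 8.85 to 26.2 FPKM in set 2, so that both genes followed the set and not the treatment or the genotype.

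Within the F/F groups, where both sets occur under the same treatment, the log2 difference between sets averaged 3.99 for Xirp2 and 3.66 for Nexn, the third and the fourth largest of 10719 genes. These values are those by which the genes were chosen. The averages of the other 8 genes were lower in set 1, from -1.01 for Xirp1 and -0.76 for Mybph to -0.16 for Ankrd1, although Ankrd23 was higher in set 1 within Hypo (0.10). The transcripts of Nexn and Xirp2 had the lowest GC content of the 10 genes, 39.6% and 42.2%, whereas the others had 47.9% (Ankrd1) to 57.5% (Ankrd2). Over 4422 genes the median difference fell from 0.50 in the decile of genes with the lowest GC content to -0.37 in the highest decile. The correlation with GC content was -0.60 (Pearson r across genes, which share the same libraries and are not independent replicates). Xirp2 and Nexn lay far above the medians of their deciles (0.20 and 0.50). What made the sets differ was not tested.

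**Figure D3:**
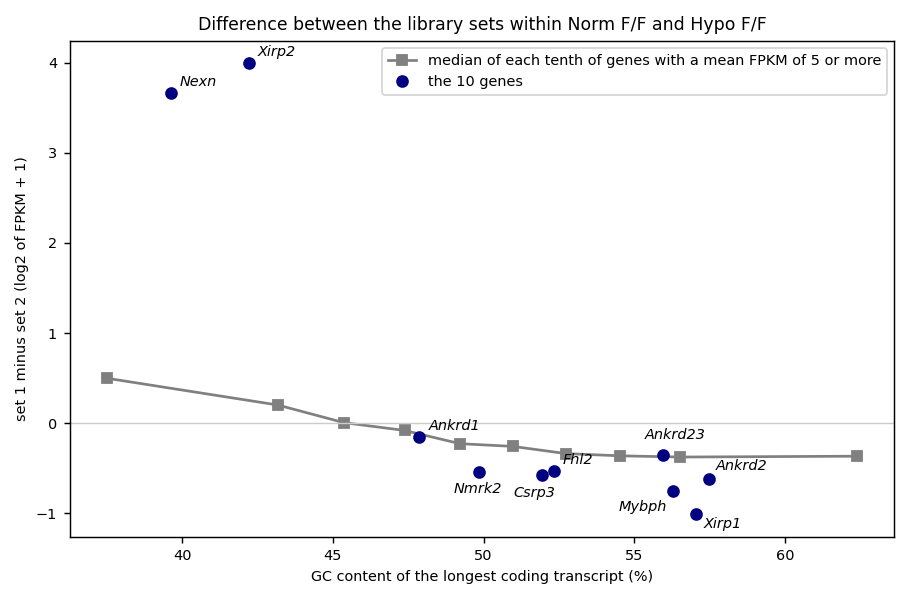
Log2 difference between library set 1 and set 2 within Norm and Hypo F/F mice (log2(FPKM + 1), vertical axis) against the GC content of the longest coding transcript (%, horizontal axis); squares are medians of deciles of 4422 genes and circles the 10 genes. Xirp2 at 3.99 and Nexn at 3.66 lie far above the line of medians, which runs from 0.50 to -0.37.

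Ankrd23 had another peculiarity in this experiment. It was at 0.68 to 3.63 FPKM in these 24 libraries, although GC of the same genotypes on chow had 625 to 899.6 FPKM and GC of the AAV mice 479 to 850.1 FPKM. In the GRCm39 annotation of this table, Ankrd23 overlaps Gm42417 (chr1:36569274-36578510) on the same strand, which is listed at 0 in every library. How reads in the overlap were assigned is not given in the sources used here, so the Ankrd23 values of this experiment are uncertain.

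The genotypes were then compared within Norm, Hypo and HFrD. In Norm and Hypo this comparison holds part of the set difference by which Xirp2 and Nexn were chosen and uses libraries on which Mybph, Csrp3 and Nmrk2 were chosen, so these 5 genes are described without a test and left out of the counts. In Norm, none of the other 5 genes (Ankrd1, Ankrd2, Ankrd23, Xirp1 and Fhl2) was called (limma), beside 0.00922% of 10849 genes, none had an unadjusted p under 0.05, and voom on the recovered reads called none. The criterion of the study was met by none of the 5, beside 0.608% of genes. Nexn was at 11.7, 16.3, 16.1 and 13.6 FPKM in ChMKO mice, all of set 2, and its log2 difference of -2.02 became -0.39 with the set as a covariate. Likewise Xirp2, at 18.9, 20.7, 17.3 and 17.5 FPKM in ChMKO mice, went from -2.01 to -0.04. The log2 differences of Mybph, Csrp3 and Nmrk2 were 0.65, 0.63 and 0.48.

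In Hypo, none of the same 5 genes was called between genotypes (limma), beside 0.00941% of 10629 genes, none had an unadjusted p under 0.05, and voom on the recovered reads called none. None of the 5 met the criterion of the study, beside 0.0564% of genes. The other genes are described only. Nmrk2 was at 64.1 FPKM on average in Hypo ChMKO and 31.2 FPKM in Hypo F/F mice, a ratio of 2.06. Only mouse c340 of the ChMKO group lay within the F/F range. Mybph was at 132 against 63.4 FPKM, a ratio of 2.09, with F/F mouse c341 within the ChMKO range. All 4 Hypo ChMKO libraries were of set 2, and within that set the F/F mice c341 and c348 had Nmrk2 of 44.4 and 24.6 FPKM. Mouse c341 had the higher value of these 2 F/F mice for the next genes as well. In c341 and c348 Mybph was at 110.1 and 69.7 FPKM, Csrp3 at 174 and 27, Ankrd2 at 516 and 67.7, and Xirp1 at 91.8 and 30.2 FPKM. Their means (89.9, 100.5, 292.1 and 61.02 FPKM) therefore rest on c341. The means of Hypo ChMKO were 132, 116, 327 and 73.4 FPKM, and the part of the set in these differences was not tested. Csrp3, Ankrd1, Ankrd2 and Xirp1 had ratios of 1.67, 3.07, 1.62 and 1.57, with overlapping ranges. Without F/F mouse c341 the ratios of Csrp3 and Ankrd2 were 3.36 and 3.37, and without ChMKO mouse c345 that of Ankrd1 was 1.77. Xirp2 averaged 22 FPKM in Hypo ChMKO against 158 FPKM in Hypo F/F mice and Nexn 19.2 against 125 FPKM, where the F/F means span both sets.

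On the high-fructose diet, where all 8 libraries were of set 1, none of the 10 genes was called between genotypes (limma), beside 0.019% of 10516 genes, none had an unadjusted p under 0.05, and voom on the recovered reads called none. None met the criterion of the study, which 0.019% of genes also met. Xirp2 was at 314, 322, 298 and 298.9 FPKM in HFrD F/F and 331, 311, 297 and 290.0 FPKM in HFrD ChMKO mice, with a 95% interval of the log2 difference of -0.12 to 0.11. Nexn was at 210.5, 214, 204 and 221 and 207, 207, 221 and 175 FPKM, with an interval of -0.22 to 0.08. Nmrk2 was at 17.4, 15.5, 21.8 and 38.3 FPKM in F/F and 11.7, 11.9, 27.1 and 14.3 FPKM in ChMKO mice (log2 difference -0.49, 95% interval -1.18 to 0.20, limma adjusted p = 0.808).

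The diet was compared with Norm in F/F mice, whose Norm group held both library sets while all HFrD libraries were of set 1. Mybph, Csrp3 and Nmrk2 were chosen on values that include the same Norm libraries, and Xirp2 and Nexn on the sets, so these 5 genes are described without a test. Of the other 5 genes (Ankrd1, Ankrd2, Ankrd23, Xirp1 and Fhl2), none was called between HFrD and Norm (limma), beside 0% of 10708 genes, of which 2532 had an unadjusted p under 0.05, as had none of the 5. Voom on the recovered reads also called none, and none of the 5 met the criterion of the study, beside 0.42% of genes. Xirp1 had the largest difference of the 5, 0.82 on the log2 scale (95% interval -0.14 to 1.78), and 1.48 with the library set as a covariate. Mybph was at 8.71, 9.81, 14.8 and 21.4 FPKM in HFrD F/F mice, against 21.1, 39.9, 29.2 and 20.9 FPKM in Norm, so that 3 of the 4 HFrD libraries lay below every Norm library (ratio of means 0.492). Csrp3 was at 22, 19.6, 22.6 and 21.3 FPKM in HFrD, a narrow range that only Norm mouse c368 reached. The log2 differences of Mybph and Csrp3 were -1.002 and 0.43 without, and -0.89 and 0.60 with, the set as a covariate. Xirp2 had 1.97 and Nexn 1.78 without, and 0.00 and 0.14 with it. Marker sums are given as a description, since these groups differ in library set as well as in diet. Slow-twitch markers summed to 116 to 516 FPKM in Norm and, within that range, to 348.4 to 509.9 FPKM in HFrD F/F mice. Markers of fibroblasts and tendon summed to 171 to 381 and 126 to 143 FPKM, and those of red blood cells to 94.3 to 349 and 69.5 to 91.7 FPKM. Their part in these levels was not tested.

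In ChMKO mice the diet and the library set cannot be told apart, since all Norm libraries were of set 2 and all HFrD libraries of set 1. The same 5 genes are described without a test here. Of the other 5, none was called (limma), beside 64% of 10734 genes, with 1, Ankrd1, at an unadjusted p under 0.05 (log2 difference 0.32, limma adjusted p = 0.0545), and none met the criterion of the study, beside 5.06% of genes. Voom on the recovered reads called none of the 5, whereas Ankrd1 and Ankrd2 were called after rescaling and, with Xirp1, without HFrD mouse C309. Xirp2 differed by 3.97 and Nexn by 3.73 on the log2 scale. Nmrk2 was at 11.7, 11.9, 27.1 and 14.3 FPKM in HFrD and 49.3, 43.2, 48.3 and 89 FPKM in Norm ChMKO mice, without overlap (log2 difference -1.78). The difference of Nmrk2 between sets was -0.79 within Norm F/F and -0.29 within Hypo F/F mice (average -0.54). Cell type markers moved in the same comparison: 4 of 5 of fibroblasts and tendon were called lower (223 to 454 FPKM summed in Norm, 125 to 153 in HFrD), as were all 4 tested of satellite cells and regenerating fibres and both of endothelium, macrophages and red blood cells, and 2 of 7 slow-twitch markers were called higher. Their part in these levels was not tested. Mybph, at 5.92 to 28.6 FPKM in HFrD against 24.2 to 98.2 FPKM in Norm, differed by -1.28. The genotype-by-diet interaction called none of these 5 genes, beside 0% of 10735 genes, and none of the 5 had an unadjusted p under 0.05.

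The AAV comparison asked whether more ChREBP in adult GC changed these genes. None of the 10 was called (limma), beside 0.00904% of 11058 genes, with 1, Ankrd1, at an unadjusted p under 0.05. None met the criterion of the study, beside 0.0181% of genes. Ankrd1 was at 3.72, 3.11, 4.78, 3.98 and 3.59 FPKM with AAV-ChREBP and 2.89, 3.3, 2.08, 2.08 and 4.13 FPKM with AAV-GFP in the mice numbered 1, 3, 4, 7 and 8 (log2 difference 0.33, 95% interval 0.02 to 0.64), and was higher in 3 of 5 same-numbered pairs. Csrp3 was at 2.07, 1.66, 4.81, 12.5 and 5.21 FPKM with AAV-ChREBP and 8.93, 17.6, 0.75, 14.3 and 6 FPKM with AAV-GFP (95% interval -1.93 to 0.68). All 10 ranges overlapped. Mybph was high in both groups, 101 to 380.4 FPKM with AAV-GFP and 146 to 340.96 with AAV-ChREBP, above its level in all GC libraries on chow. Nmrk2 spread from 11.9 to 79.4 FPKM with AAV-GFP and from 9.29 to 58 FPKM with AAV-ChREBP, and in both groups the libraries numbered 1 and 4 were the highest, so the 95% interval of its log2 difference was wide, -1.76 to 1.02. Because same-numbered libraries of the AAV groups deviated together, the fit with the number as a block is given beside these values: the interval was -0.00 to 0.66 for Ankrd1, -1.78 to 0.53 for Csrp3 and 0.03 to 0.44 for Mybph (higher in 4 of 5 pairs, unadjusted p = 0.031, limma adjusted p = 0.847). Nmrk2 was lower with AAV-ChREBP in 5 of 5 same-numbered pairs, by -0.37 on the log2 scale with a 95% interval of -0.47 to -0.27, and missed the threshold (unadjusted p = 1.52e-05, limma adjusted p = 0.0687). Xirp2 was at 254, 255, 264, 331 and 280.5 FPKM with AAV-ChREBP and 236, 226, 233, 287 and 263 FPKM with AAV-GFP, higher in 5 of 5 pairs, and its interval went from -0.04 to 0.34 to 0.07 to 0.23 with the block (unadjusted p = 0.00217, limma adjusted p = 0.774). The intervals of Nexn (-0.26 to 0.08) and Ankrd23 (-0.38 to 0.41) included 0, also with the block (-0.19 to 0.01 and -0.09 to 0.12). Ankrd2 averaged 21.5 FPKM with AAV-GFP and 14.2 with AAV-ChREBP, Xirp1 22.2 and 23.6 FPKM and Fhl2 0.795 and 0.687 FPKM, with 95% intervals of the log2 difference that also included 0 (-1.67 to 0.75, -0.70 to 0.66 and -0.46 to 0.32).

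In C2C12 cells on day 7, 6 of the 9 genes tested were higher in Ch-OE than in CON (Mybph, Csrp3, Ankrd1, Ankrd23, Xirp1 and Nexn) and none was lower, beside 30.5% of 11972 genes called in either direction. Xirp2 was under the minimum mean of 0.5 FPKM and was not tested, but was called higher in Ch-OE with no filter on low genes. No member met the criterion of the study, beside 0.384% of genes: the changes were under 2-fold. The median log2 difference was 0.34 over the 9 genes and 0.00 over all genes. Mybph was at 90.2, 91.5, 90.8 and 86.5 FPKM in CON and 124, 122, 126 and 126 FPKM in Ch-OE (log2 difference 0.47 ± 0.03, limma adjusted p = 4.22e-07). Ankrd1, a target of YAP in many cells, was at 323, 307, 286 and 285 FPKM in CON and 414, 406, 410.2 and 404 FPKM in Ch-OE (log2 difference 0.44 ± 0.04, limma adjusted p = 1.27e-05). The replicates were close and neither gene overlapped between the lines.

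Xirp1 had the largest ratio, 1.81, with 2.18, 2.31, 2.37 and 2.17 FPKM in CON and 3.91, 4.14, 4.34 and 3.95 FPKM in Ch-OE (limma adjusted p = 5.96e-06). Ankrd23 was at 8.45, 6.52, 6.75 and 6.68 FPKM in CON and 10.7, 11.3, 11.6 and 10.5 FPKM in Ch-OE (ratio 1.55, limma adjusted p = 0.000113). Nexn was at 19.1, 20.2, 19.8 and 20.1 FPKM in CON and 25.9, 25.3, 24.4 and 25.7 FPKM in Ch-OE (ratio 1.28, limma adjusted p = 1.71e-05). These 3 genes did not overlap between the lines. Csrp3 did, at 5.25, 6.93, 6.32 and 7.86 FPKM in CON and 9.1, 9.54, 7.97 and 7.24 FPKM in Ch-OE (log2 difference 0.32 ± 0.10, limma adjusted p = 0.0371), and its call was lost without any of 6 of the 8 libraries (all but CON 4 and Ch-OE 4), with no filter on low genes and with the replicate number as a block. Ankrd2 missed the threshold (log2 difference 0.21 ± 0.08, limma adjusted p = 0.0568) but was called without CON 1, CON 2 or Ch-OE 4 and with the block, so that 5 to 7 genes were called with 1 library left out. Fhl2 and Nmrk2 had 95% intervals of -0.21 to 0.06 and -0.32 to 0.21.

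Other muscle genes rose along with them in Ch-OE. Of 27 tested Z-disc genes, 19 were higher and 2 lower, among them Pdlim3 at 0.86, Klhl41, which stabilises nebulin, at 0.85 and Ttn (titin) at 0.83 on the log2 scale. Of 7 tested paralogs, 5 were higher and none lower, with Fhl1 at 0.50, Csrp1 at 0.31 and Nmrk1 at 0.28. Of 15 load genes, 7 were higher and 1 lower, with Ccn2, a YAP target, at 1.44, Actc1 at 1.03 and Atf3 at 0.64, and of 5 NAD genes only Nmnat3 was called, at -0.23. Markers moved with the lines too: slow-twitch markers summed to 539 to 571 FPKM in CON and 674 to 710 FPKM in Ch-OE, those of regenerating fibres to 268 to 284 and 331 to 349 FPKM, and those of smooth muscle to 389 to 410 and 702 to 724 FPKM. Single markers did not all follow these sums: among those of regenerating fibres Myh3 (0.99) and Myog (0.67) were called higher and Myh8 (-0.28) lower. Fibroblast and tendon markers went down, from 2948 to 3066 FPKM in CON to 2668 to 2854 FPKM in Ch-OE with 3 of 4 called lower, and of 6 tested fast-twitch markers 4 were called higher and 2 lower. Their part in the levels of the 9 genes was not tested. In the 5 genotype comparisons and with AAV-ChREBP, no gene of these 4 lists was called (limma), and 0 to 7 of the 57 to 59 tested had an unadjusted p under 0.05 in each.

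**Figure D4:**
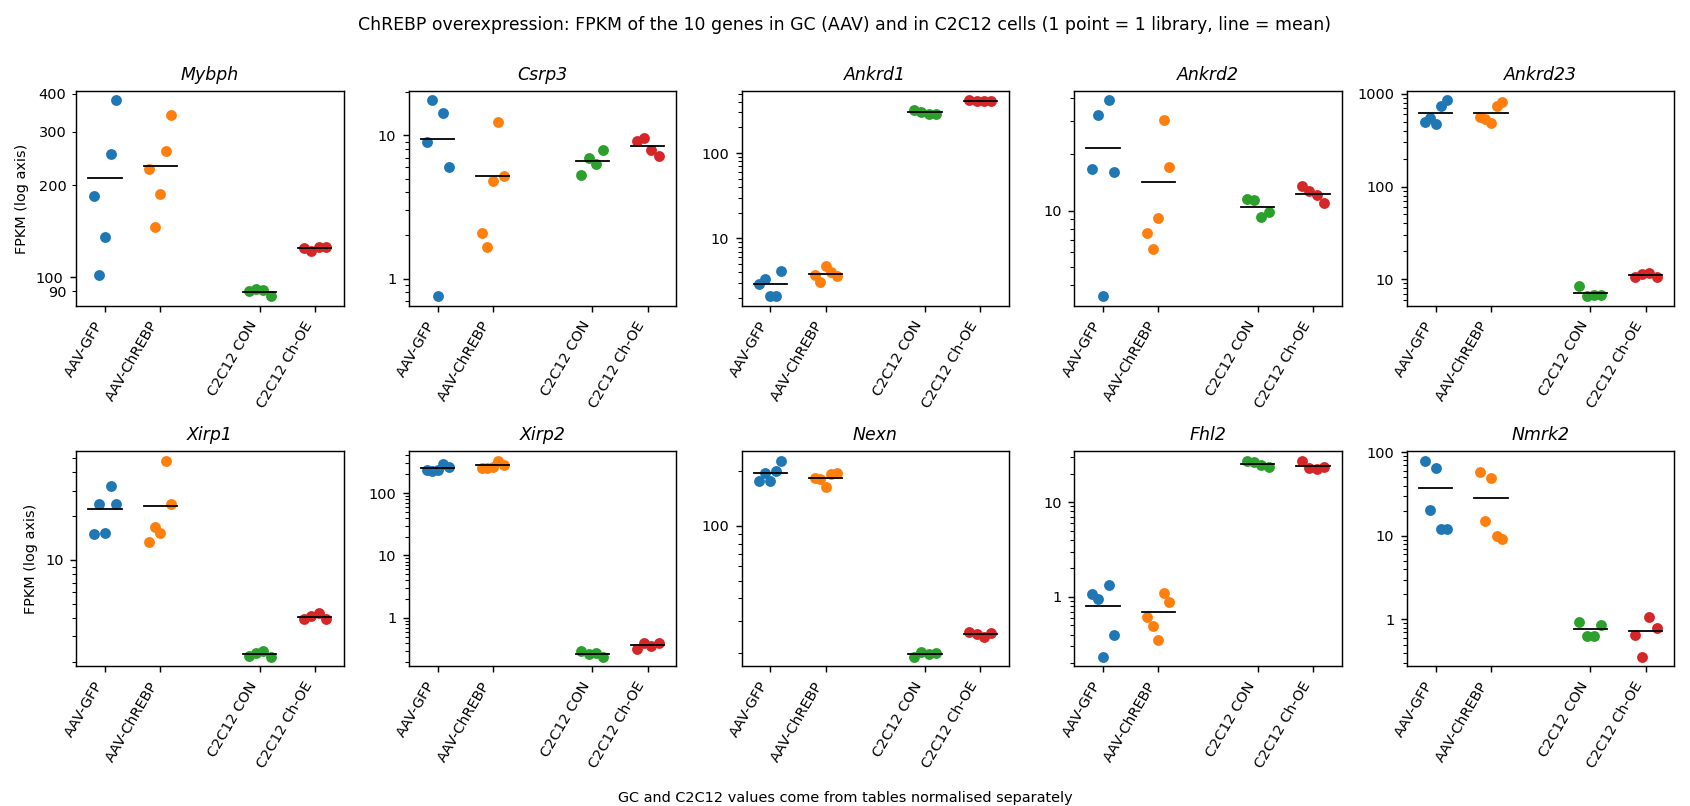
FPKM (log axis, scaled separately for each gene) of the 10 genes in GC with either AAV (n = 5 per group) and in C2C12 CON and Ch-OE (n = 4 per group); each point is 1 library and the line is the group mean. The AAV groups overlap for all 10 genes, whereas Mybph, Ankrd1, Ankrd23, Xirp1 and Nexn are higher in every Ch-OE library than in every CON library.

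**Figure D5:**
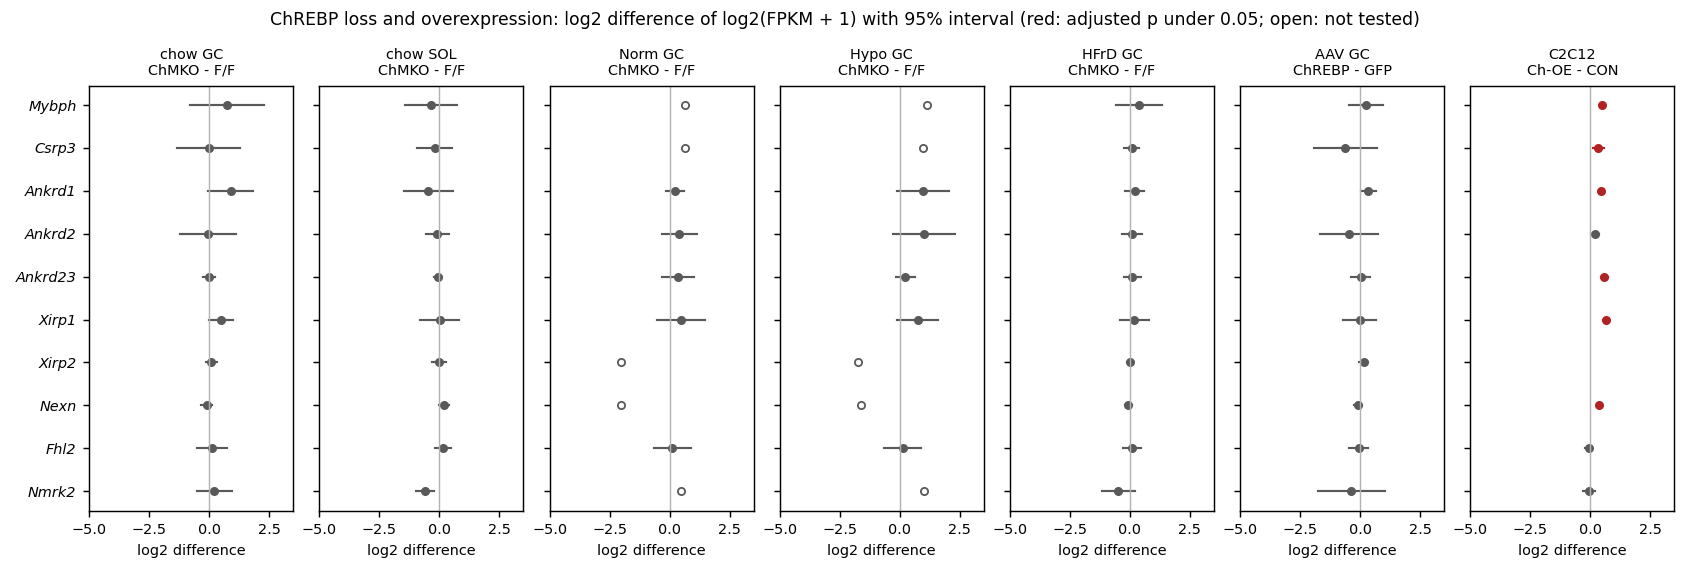
Log2 difference (log2(FPKM + 1), horizontal axis) of the 10 genes with loss of ChREBP (ChMKO minus F/F in 5 settings), with AAV-ChREBP and in C2C12 Ch-OE; bars are 95% intervals, red marks a limma adjusted p under 0.05, and open points in Norm and Hypo are genes chosen on those libraries, shown without a test. Only points of the C2C12 panel are red.

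Across the 24 libraries of Norm, Hypo and HFrD, the genes did not vary as a single group. As a description (Pearson r of log2(FPKM + 1) over 24 libraries that share treatments and library sets), Csrp3 and Ankrd2 had r = 0.89 and Xirp2 and Nexn 0.99. Among 4492 other genes whose mean FPKM was 5 or more, Csrp3 was most like Myo18b (0.89), Hspb7 (0.89) and Lmcd1 (0.88), and Ankrd2 was most like Hspb7 (0.92), Actn2 (0.90) and Casq2 (0.87). Mybph was most like Actc1 (0.92), Pak1 (0.91) and Eno1 (0.90), and Fhl2 most like Pcp4l1 (0.87), Pla2g12a (0.86) and Bdh1 (0.85). Xirp1 was nearest to Otulin (0.83), Atf3 (0.83) and Midn (0.82), Nmrk2 to Rras2 (0.90), Ttc4 (0.88) and Smim11 (0.87), and Ankrd1 to Rps20 (0.80), Myl12a (0.79) and Mustn1 (0.78). Xirp2 and Nexn, whose values follow the library sets, were each most like Pcm1 (1.00), and Ankrd23, at its low level, reached no more than 0.72 (Snrpe).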

How the data were processed

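RNA was extracted with TRIzol, poly(A) RNA libraries were made with a NEBNext Ultra kit and sequenced on a NovaSeq instrument. The FPKM values in all 4 tables were computed by the authors. The submitters' processing notes name fastp 0.18.0, Bowtie2 2.2.8, HISAT2 2.1.0, StringTie 1.3.1, RSEM and GRCm39, and the chow table carries GRCm38 positions. Columns of the authors' own comparisons were not used. Samples were grouped by their labels. The number of 1 SOL F/F sample, mouse 69, is 59 in its title and 69 in its column name.

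Each comparison was fitted alone with limma 3.58.1 (R 4.3.3) on log2(FPKM + 1), using lmFit and trended eBayes, and genes whose mean over its libraries was under 0.5 FPKM were left out. Tests were two-sided, with Benjamini-Hochberg adjustment over all genes tested. The scripts were tested on simulated data. The pseudocount of 1 understates changes of low genes. Of several entries with 1 symbol, the most abundant kept it. In the Norm, Hypo and HFrD table, 99.8% to 99.9% of values gave whole reads within 0.01, and voom on these reads was an alternative. The other alternatives were a pseudocount of 0.1, no filter, a filter at 5 FPKM, rescaling by the median of ratios, each library left out, and a block for mouse or number. The library set as a covariate was added after seeing the data. Numbers in the AAV groups were taken to pair the libraries (correlations of deviations 0.21 to 0.63 for all 5 numbers), although number 4 did not match best with its own number. GC and SOL with 1 animal number in their titles were taken as 1 mouse (correlations -0.11 to 0.37 in F/F and 0.01 to 0.11 in ChMKO mice). F/F number 69 and the ChMKO numbers did not match best with their own number, so there the pairing rests on the labels. The 10 genes, the related lists and the tests were chosen with earlier results of these data known. All 10 genes are named, and from each list the up to 3 called genes with the largest change.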

Additional observations from a re-analysis of the deposited data

Results flagged for a closer look

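Values of the 10 genes in 1 library stood apart from the others of its group, by the gap to the nearest library as a share of the group's range, in 15 of 140 groups of 4 or 5 libraries. The 10 genes share the same libraries, so these are not independent events and the count is a description. Of these, 4 were in the SOL library of F/F mouse 70: Mybph at 10.4 FPKM (others 0.604 to 0.907), Csrp3 at 1267 FPKM (304 to 513), Ankrd1 at 43.4 FPKM (4.96 to 11.9) and Xirp2 at 253 FPKM (148 to 170). In Hypo F/F mouse c341, Csrp3 was at 174 FPKM (27.0 to 42.4), Ankrd2 at 516 FPKM (67.7 to 113) and Xirp1 at 91.8 FPKM (29.2 to 35.5).

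In Norm F/F mouse c369, Ankrd23 was at 3.40 FPKM (0.677 to 0.964) and Xirp1 at 79.8 FPKM (16.1 to 25.6), and in Hypo ChMKO mouse c345 Ankrd23 was at 3.63 FPKM (1.83 to 1.96). Fhl2 stood apart on chow in GC of F/F mouse 58, at 2.47 FPKM (0.273 to 0.382), and of ChMKO mouse 72, at 1.85 FPKM (0.457 to 0.767). These mice had the highest slow-twitch sums of their GC groups, 767 and 404 FPKM. Nmrk2 stood apart in Norm ChMKO mouse 380, at 89.0 FPKM (43.2 to 49.3), and in HFrD ChMKO mouse C299, at 27.1 FPKM (11.7 to 14.3). Ankrd23 in C2C12 CON replicate 1 was at 8.45 FPKM (6.52 to 6.75).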

How the results depend on the processing

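In the comparisons of SOL with GC, Mybph, Csrp3, Ankrd2, Xirp1, Fhl2 and Nmrk2 were called under every alternative run. With the replicate number as a block, 7 of 10 genes were called in F/F mice (also 7 without mouse 69), 8 of 10 in ChMKO mice (Ankrd23 lost in both), 0 of 10 with AAV-ChREBP and 6 of 9 in C2C12, where Ankrd2 replaced Csrp3 and same-numbered libraries share only a number; the genotype-by-muscle interaction without the block called 0. In HFrD against Norm of ChMKO mice, the number of the 10 genes past the threshold is a description and no test, since Xirp2, Nexn and Nmrk2, all 3 of those past it, were chosen on values it shares. It was 4 (Mybph added) by voom, with a pseudocount of 0.1 or a filter at 5 FPKM, 5 after rescaling by the median of ratios, with Ankrd1 and Ankrd2 added, and 3 to 6 with 1 library left out, the 6 without mouse C309. In F/F mice the same comparison called 0 to 1 with 1 library left out, the 1 being Xirp1 without Norm mouse c369 (1.31), and the genotype-by-diet interaction likewise 0 to 1, the 1 being Nexn without that mouse (2.60), a gene chosen on the set difference that this interaction holds. With a filter at 5 FPKM, 4 genes had a positive difference in hypoxia in F/F mice because fewer genes were left. The cause of the other changes was not tested. Among differences that were tested, the 23 called kept their sign in every setting run, and 36 of the 81 others changed sign in at least 1. Rescaling moved the median of all genes between SOL and GC from 0.18 to -0.01 in F/F and from 0.15 to 0.00 in ChMKO mice, and the genes called higher from 5016 of 6683 to 2746 of 5853 and from 5364 of 7588 to 3384 of 7046. In HFrD against Norm of ChMKO mice they went from 2078 of 6869 to 2920 of 5772. Values under about 1 FPKM, as for Fhl2 in GC and Xirp2 and Nmrk2 in C2C12, are low, and how far depth limits them was not tested.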
